A study of Homo sapiens with 30 samples.

Results

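MYC was mapped by ChIP-Seq in G401 cells, and the distal peaks of 1 sample, EGFP replicate 2, are described here. A peak was called distal when its summit, the base with the most signal, lay more than 5 kb from every transcript start in the RefSeq-based PRO-Seq table of the same study (hg19). The members were thus chosen by the peak positions of EGFP replicate 2 alone and 700 of 5396 peaks met the rule (13.0%, exact 95% interval 12.1 to 13.9). Another 4354 peaks had a summit within 1 kb of a listed start and are called promoter peaks, and 342 lay between these limits. G401 is a malignant rhabdoid tumor line without SNF5, the SWI/SNF subunit encoded by SMARCB1, so every group shares that loss. The cells carried a lentiviral, TET-inducible, HA-tagged construct for EGFP (the control), SNF5, or OmoMYC (labelled OMOMYC), a dominant-negative MYC mutant, and all groups received 1 µg/ml doxycycline for 24 h. They were pools of transduced cells kept under G418 selection, not clones. MYC ChIP-Seq had 2 samples per construct, and PRO-Seq and ATAC-Seq had 3 each. The study describes the replicates as biological, and those of ChIP-Seq and PRO-Seq as independent experiments.

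MYC is a basic helix-loop-helix leucine zipper transcription factor that pairs with MAX and contacts DNA at the E-box CACGTG. It is known mainly from promoters, where it supports genes of ribosome production, translation and metabolism, and it also occupies enhancers and other open chromatin away from starts. Proteins such as MXI1, MNT and MGA pair with MAX in its place and read the same E-boxes. SNF5 contacts the MYC region that pairs with MAX, and OmoMYC competes for the same partner and sites.

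The sequences below are shown because they carry the E-box, which the rule on distance did not use. Each is on the plus strand of the hg19 reference, reads 5′ to 3′, and has in capitals the CACGTG nearest the summit in 30-base sequences and every CACGTG in longer ones. The first set gives 30 bases around the E-box nearest the summit in 9 of the 10 distal peaks with the highest fold enrichment among those that EGFP replicate 1 also had and that held CACGTG within 100 bp of the summit. Names are those of the start or transcript found closest in GENCODE.
ENSG00000286874, chr7:4681732-4681761: ctgccggggcgcCACGTGgtgcgcacgtgg
EIF4A1, chr17:7475837-7475866: ctgtcgcctccgCACGTGtgagagtgcagg
FAM174B, chr15:93352575-93352604: gcggagccgtgcCACGTGgccggcccggag
SNHG26, chr7:22893925-22893954: gcaggagccgacCACGTGgctccggggcta
NME2, chr17:49244060-49244089: cggccgggaagcCACGTGtccccgcggccg
ENSG00000288632, chr16:29625159-29625188: cccagctcggagCACGTGcgtcctccggcc
JAK3, chr19:17953206-17953235: cccagggaggccCACGTGgaaggtctcggc
TET3, chr2:74211958-74211987: tcggcggggccgCACGTGtgcgccctcccg
TEF, chr22:41777320-41777349: gccacagccccgCACGTGcggcgcctcgtg

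In these 9 peaks the middle of the nearest E-box lay between 1 and 50 bp from the summit. The bases outside the hexamer differed from peak to peak, and the peak near ENSG00000286874 held a second CACGTG a few bases on. The peaks at NME2 and TET3 also held 2 each within 100 bp of the summit. The summit window at ENSG00000288632 had 1 near-identical copy elsewhere in the genome, so the placement of its reads is uncertain.

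The second set gives the 201 bases centered on the summit for 2 peaks that lay more than 5 kb from every GENCODE start as well. They are shown because each held more than 1 CACGTG and was also a peak in EGFP replicate 1.
near PTGS1, chr9:125108907-125109107: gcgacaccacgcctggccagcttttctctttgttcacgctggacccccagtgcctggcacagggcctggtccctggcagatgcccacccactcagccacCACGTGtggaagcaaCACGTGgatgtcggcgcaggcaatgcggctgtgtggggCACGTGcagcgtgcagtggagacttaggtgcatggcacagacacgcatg
near HLF, chr17:53315681-53315881: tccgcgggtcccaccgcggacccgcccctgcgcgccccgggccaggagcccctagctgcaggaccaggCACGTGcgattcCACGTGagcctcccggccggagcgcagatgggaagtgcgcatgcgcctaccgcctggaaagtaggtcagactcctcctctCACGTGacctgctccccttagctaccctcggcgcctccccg

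The window near PTGS1, which encodes cyclooxygenase 1, held 3, and the window near HLF, a bZIP factor of the PAR family, also held 3.

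EGFP replicate 2 stood apart from the other MYC samples, with 5396 peaks against 940 in EGFP replicate 1, 137 and 27 in the SNF5 samples, and 0 in both OmoMYC samples. At SMARCB1 the MYC peaks did not follow the construct. In EGFP replicate 1, 8 peaks lay in coding exons of that gene, with folds from 3.43 to 9.67, as did 6 peaks of SNF5 replicate 1 (3.04 to 7.34). EGFP replicate 2 had 0, and so did SNF5 replicate 2, although its cells carried the SNF5 construct. In PRO-Seq, scaled gene body counts on SMARCB1 were 4.4, 1.3 and 4.9 in the EGFP samples, 2.2, 6.5 and 3.3 with OmoMYC, and 2698, 4760 and 2934 with SNF5. The PRO-Seq samples thus followed their labels as to SNF5, whereas SMARCB1 counts cannot tell EGFP from OmoMYC samples. Of the markers, mesenchymal VIM and COL1A2 had 7055 to 17207 and 452.4 to 6223 gene body counts, and epithelial EPCAM and CDH1 14.9 to 47.6 and 88.8 to 931.4. Leukocyte PTPRC and CD3E had 0 to 1.1 and 0 to 11.6. Endothelial PECAM1 was at 0 in every sample, but CDH5 had 6.6 to 137.5 and was higher with SNF5 (log2 1.3 ± 0.29, adjusted p = 0.00910), as were CDH1 (1.0 ± 0.24, adjusted p = 0.0120) and COL1A2 (0.65 ± 0.08, adjusted p = 0.000522). The part of these markers in the results below was not tested. Gene body counts totaled 28388012 to 46859674 per sample. Promoter-proximal counts totaled 517824 to 671718 in the samples numbered 1 and 2024662 to 3381190 in the others. How many reads stand behind a peak is unknown, since the lists give none. By the sequencing metrics of the study, EGFP replicate 2 had the most mapped reads of the MYC samples. The part of this depth in its number of peaks was not tested.

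The distal peaks lay far from listed starts, but most lay at starts that the table does not list. The median distance to the nearest listed start was 21444 bp (5003 to 616403), and 538 peaks (76.9%) were more than 10 kb away, 156 (22.3%) more than 50 kb and 63 (9.0%) more than 100 kb. Against all GENCODE starts, however, 412 of the 700 (58.9%, exact 95% interval 55.1 to 62.5) had a summit within 1 kb of a start, although 5.66% of the bases beyond 5 kb from listed starts lie that close to one. A further 96 (13.7%) lay 1 to 5 kb from a GENCODE start, and 192 (27.4%) lay more than 5 kb from all of them, against 78.0% of the bases. The label of distal peaks therefore holds against the starts of the table and not against GENCODE for most members. The 3 classes are called unlisted start, intermediate and far below. They were defined after the positions were seen and their differences are given as descriptions, without a test.

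**Figure D1:**
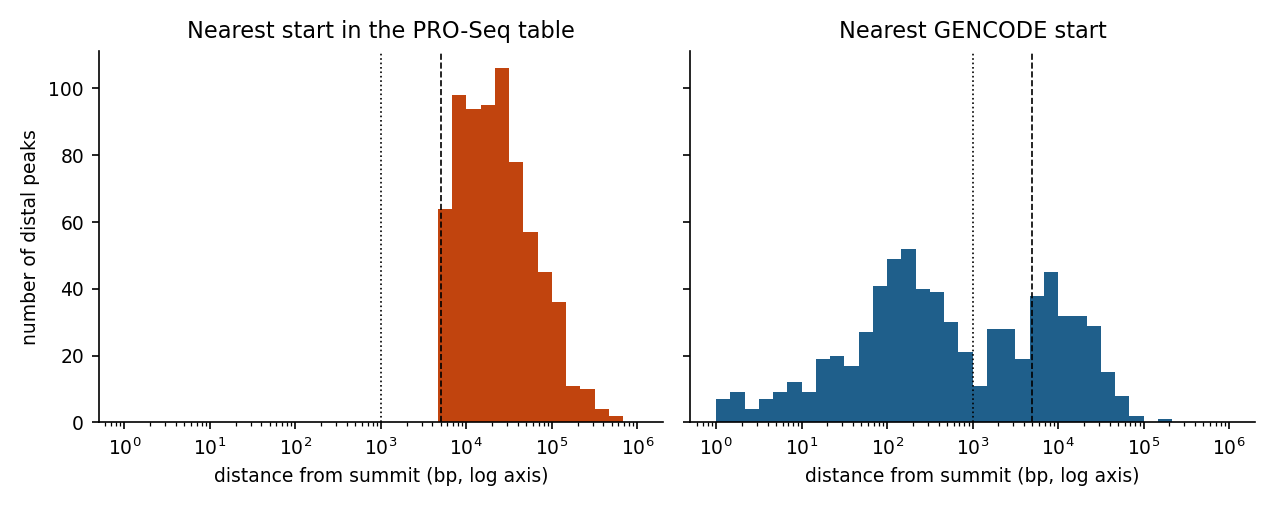
Histograms of the distance in bp (log axis) from the 700 distal summits to the nearest start in the PRO-Seq table and to the nearest GENCODE start, as numbers of peaks, with lines at 1 and 5 kb. Against the table every summit is past 5 kb by the rule, while against GENCODE 412 lie within 1 kb.

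Of the 412 peaks at an unlisted start, the start belonged to a protein-coding gene for 261 (63.3%), to a lncRNA for 118 (28.6%), to a miRNA for 10 (2.43%) and to another type for 23 (5.58%). For 207 of the 412 (50.2%) that gene was in the table under another start. LARP1, an RNA-binding protein that controls translation of mRNAs for the translation machinery, was one: its peak at chr5:154134139-154135021 had a fold of 16.04 and lay 42079 bp from the listed start but 396 bp from another start of LARP1. The peak of PES1, a ribosome biogenesis factor, lay 15118 bp from the listed start and 5 bp from an unlisted one.

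By GENCODE transcripts, the summit lay in an intron for 253 distal peaks (36.1%), between genes for 225 (32.1%), in an untranslated region for 83 (11.9%), in a non-coding exon for 82 (11.7%) and in a coding exon for 57 (8.14%). Inside a transcript of the PRO-Seq table lay 305 summits (43.6%), close to the 41.0% of eligible bases. Promoter peaks had more summits in untranslated regions (32.7%) and fewer in introns (23.1%). Of the 192 far peaks, 115 (59.9%) were intergenic and 64 (33.3%) intronic. Chromosome 19 held 71 distal peaks and chromosome 1 held 70, and their share of all peaks was highest, among chromosomes with more than 100 peaks, on chromosome 22 (32 of 136, 23.5%) and lowest on chromosome 4 (15 of 187, 8.02%). The 201 bases at the summit had a near-identical copy elsewhere in the genome for 66 distal peaks (9.43%) and 161 promoter peaks (3.70%), and the placement of reads there is uncertain.

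The distal peaks closest to the 5 kb limit were at PPFIA3 (5003 bp, fold 5.57), CARNS1 (5034 bp, 4.56) and F12 (5054 bp, 3.82). The closest peaks that missed the rule, with a start within 5 kb, were at VILL (4961 bp, fold 6.10), UBE2E1 (4874 bp, 7.19) and MGC23270 (4866 bp, 5.15). All 6 were within 1 kb of a GENCODE start, at 28 to 582 bp.

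Enrichment and width come from the list that chose the members and are given as descriptions. The fold enrichment over local background, as MACS2 reports it, had a median of 4.99 in the 700 distal peaks (2.46 to 28.6), against 5.20 in promoter peaks (2.46 to 20.3). The median −log10 q was 7.15 (2.02 to 143) against 8.05, and the median width 301 bp (146 to 1334) against 368.5 bp. By class, the median fold was 5.12 at unlisted starts, 4.80 in the intermediate class and 4.92 in far peaks, with widths of 320, 281 and 270.5 bp. Base composition differed more: the ratio of observed to expected CpG in the summit window had a median of 0.90 in promoter peaks, 0.85 at unlisted starts, 0.69 in the intermediate class and 0.61 in far peaks.

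**Figure D2:**
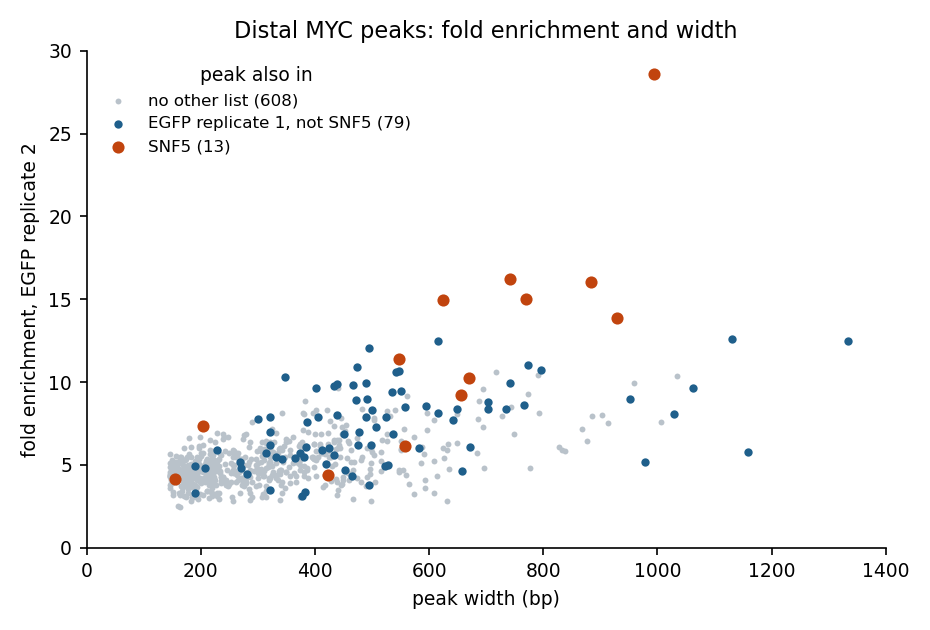
Fold enrichment in EGFP replicate 2 against peak width in bp for the 700 distal peaks, colored by whether another list had an overlapping peak: no list (608), EGFP replicate 1 without SNF5 (79) or a SNF5 sample (13). Most peaks sit below a fold of 10, and the peak near ENSG00000286874 stands alone at 28.6.

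The strongest distal peak lay between genes at chr7:4681260-4682253, 40194 bp from the listed start of FOXK1 and 143 bp from the start of the lncRNA ENSG00000286874. Its fold was 28.6 in EGFP replicate 2 and 17.6 in EGFP replicate 1, with −log10 q of 143 in the former, and it exceeded the highest promoter peak (20.3). The other 14 of the 15 distal peaks with the highest −log10 q had folds from 8.98 to 16.2, and each also had an EGFP replicate 1 peak. In this group 13 of 15 lay at an unlisted start. They included EIF4A1, the RNA helicase of translation initiation (fold 16.2), NME2, a nucleoside diphosphate kinase (13.9), JAK3, a cytokine receptor kinase (12.5), AHCY, the hydrolase of S-adenosylhomocysteine (10.7), TEF, a bZIP factor (11.04), the host lncRNA of let-7a-1, MIRLET7A1HG (12.5), and the snoRNA host SNHG26 (14.98). A pair of them lay 1 and 2 bp from starts of the miRNA hsa-mir-3180-3 on chromosome 16 (10.9 and 10.7), where each window had 4 near-identical copies.

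The far peaks were led by the peak near TCF3, a basic helix-loop-helix factor of lymphocyte development (fold 11.4), followed by UNC13A, a synaptic vesicle priming factor (10.4, in a coding exon), RASA3, a Ras GTPase-activating protein (10.3, in an intron), PTGS1 (10.2), NUMBL, a relative of the Notch regulator NUMB (9.88), HLF (9.79), BHLHE41, an E-box-binding repressor of the circadian clock (9.65), HMGN2, a nucleosome-binding protein (9.62), C2orf57 (9.57), and PRDM12 (8.84, in a coding exon). EGFP replicate 1 had peaks at 6 of these 10, at TCF3 (6.19), RASA3 (7.06), PTGS1 (10.0), NUMBL (3.34), HLF (6.21) and HMGN2 (6.40). The remaining 4 were peaks in EGFP replicate 2 alone.

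Distal peaks recurred less often than promoter peaks in EGFP replicate 1, which the rule did not use. An EGFP replicate 1 peak overlapped 90 of 700 distal peaks (12.9%, exact 95% interval 10.5 to 15.6) and 741 of 4354 promoter peaks (17.02%, 15.9 to 18.2), and 16.6% of all 5396 peaks. The odds ratio was 0.72 (two-sided Fisher's exact test, p = 0.00595, adjusted over the 3 such tests to 0.00892). This test and the similar tests below compare peaks within 1 set of libraries and not replicates of a condition. When the overlap had to reach 50% of both peaks, 7.14% and 7.42% were shared and the odds ratio was 0.96 (Fisher's exact p = 0.876). Recurrence moved with enrichment. With all peaks split at folds of 4.37, 5.15 and 6.51 into 4 groups of like size, it was 3.00% for distal and 2.41% for promoter peaks in the lowest group, then 5.41% and 3.68%, then 10.6% and 8.92%, and in the highest 42.9% and 50.7%. The 90 recurring distal peaks had a median fold of 7.89 and width of 494 bp in EGFP replicate 2, and the other 610 had 4.84 and 273 bp. By class, recurrence was 14.8% at unlisted starts (61 of 412), 10.4% in the intermediate class (10 of 96) and 9.90% in far peaks (19 of 192).

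**Figure D3:**
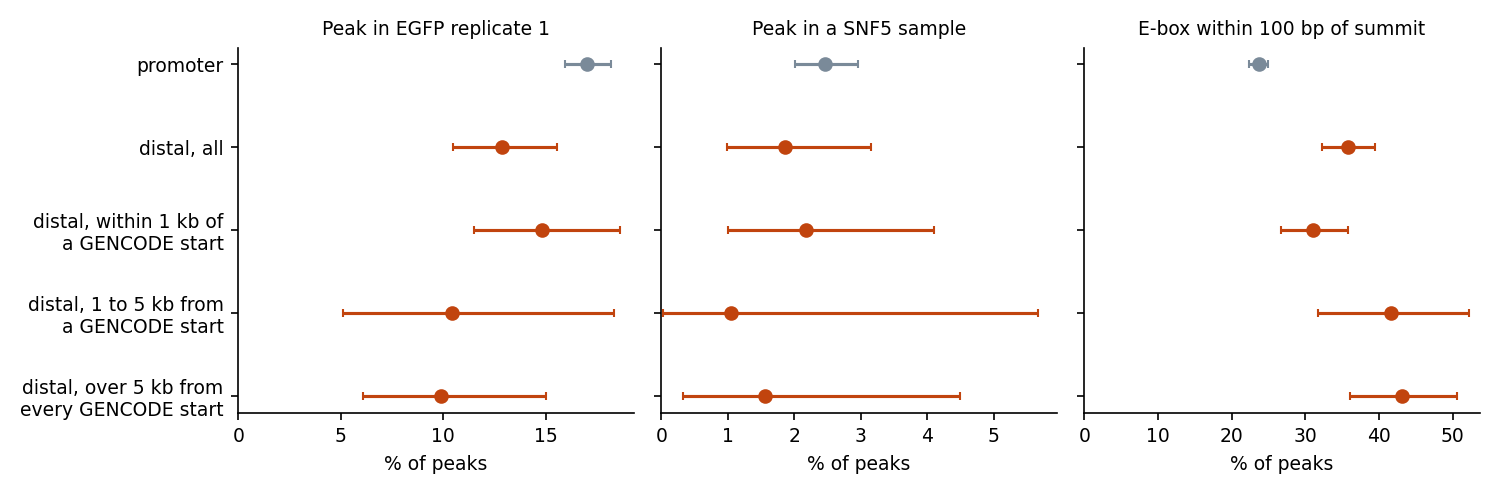
Percent of peaks with an EGFP replicate 1 peak, with a peak in at least 1 SNF5 sample, and with CACGTG within 100 bp of the summit, for promoter peaks, all distal peaks and the 3 classes of distal peak. Points are percents on axes that start at 0, and error bars are exact 95% binomial intervals, which cover counting error only. E-boxes were in 23.7% of promoter and 43.2% of far peaks, and EGFP replicate 1 peaks overlapped 17.02% and 9.90%.

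Few distal peaks were retained in cells expressing SNF5. By the same distance rule EGFP replicates 1 and 2 had 104 and 700 distal peaks, the SNF5 samples 22 and 9, and the OmoMYC samples 0 and 0. The EGFP lists were longer than both SNF5 lists, but with 2 samples against 2 an exact two-sided permutation test cannot go below p = 0.33, the value found, and the ratio of the means, 25.9, rested on EGFP replicate 2, which chose the members: without it the ratio was 6.71. A SNF5 peak overlapped 13 of the 700 (1.86%, exact 95% interval 0.992 to 3.15) and 107 of 4354 promoter peaks (2.46%, 2.02 to 2.96), beside 2.45% of all peaks, an odds ratio of 0.75 (two-sided Fisher's exact test, p = 0.421). All 13 were in SNF5 replicate 1 (1.86%, beside 2.34% of all peaks) and 4 also in SNF5 replicate 2 (0.571%, beside 0.408%). With SNF5 replicate 2 alone the odds ratio was 1.66 (Fisher's exact p = 0.323), from 4 distal and 15 promoter peaks. Of the 13, 11 also had an EGFP replicate 1 peak. Among peaks that EGFP replicate 1 shared, 11 of 90 distal (12.2%) and 105 of 741 promoter peaks (14.2%) had a SNF5 peak. The total number of peaks called was also lower with SNF5, and the part of that in the retained share was not tested.

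The retained peaks were mostly the strongest. Their median fold in EGFP replicate 2 was 11.4 (4.17 to 28.6), against 4.98 (2.46 to 12.6) in the 687 without a SNF5 peak, and 9 of them lay at an unlisted start, 1 in the intermediate class and 3 far from every start. The peak near ENSG00000286874 had folds of 28.6 and 17.6 in EGFP replicates 2 and 1 and 12.8 and 10.2 in SNF5 replicates 1 and 2. FAM174B had 15.05 and 11.9 in the EGFP samples and 10.7 and 5.93 in the SNF5 samples. SNHG26 had 14.98 and 8.85 with EGFP and 7.23 and 6.57 with SNF5. For these and for NME2 (13.9 and 8.10 with EGFP, 6.78 and 6.23 with SNF5), the only distal peaks found in all 4 lists, both SNF5 folds were below both EGFP folds. Folds from separate lists are each relative to that library's background and were not tested against each other.

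The other 9 retained peaks were in SNF5 replicate 1 only. EIF4A1 had folds of 16.2 and 9.57 in EGFP replicates 2 and 1 and 6.41 with SNF5, and LARP1 had 16.04, 8.62 and 5.97. PES1 was stronger in EGFP replicate 1 (10.6) than in EGFP replicate 2 (6.12), with 7.37 in SNF5 replicate 1. The far peaks near TCF3 (11.4 and 6.19 with EGFP, 4.58 with SNF5) and PTGS1 (10.2 and 10.0, then 7.08) were also in both EGFP lists, whereas the far peak in an intron of RALGPS1, a Ral guanine exchange factor (7.38, then 6.11), was not in EGFP replicate 1. The rest lay near HHIPL2 (9.23, 7.72 and 5.80), at LINC-PINT, a p53-induced lncRNA (4.17, then 5.60, absent from EGFP replicate 1), and at the pseudogene DUXAP9 near POTEG (4.39, 3.51 and 4.33), whose window had 2 near-identical copies. Of the 13 summits, 11 had CACGTG within 100 bp, and LARP1 and DUXAP9 were the exceptions.

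The E-boxes nearest the summit in 4 other retained peaks are shown next, since SNF5 replicate 1 also had a peak at these sites. SNF5 replicate 2 lacked a peak at all of them, and EGFP replicate 1 lacked those at RALGPS1 and LINC-PINT.
near HHIPL2, chr1:222638958-222638987: ttctgtggctgaCACGTGgcagcccaggcc
RALGPS1 intron, chr9:129921662-129921691: caggactttgccCACGTGcctttgtgattc
PES1, chr22:30987867-30987896: cacttcctcccgCACGTGccctgccaagga
LINC-PINT, chr7:130626391-130626420: acctctgggtgcCACGTGgcacctccactg

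The middle of each of these E-boxes lay within 11 bp of the summit. Peaks in the lists of the other samples that met the distance rule but that EGFP replicate 2 lacked were few: 12 in EGFP replicate 1, of which 6 were in SMARCB1 exons and 2 near TEKT4P2, 9 in SNF5 replicate 1, of which 6 were in SMARCB1 exons and 3 near TEKT4P2, and 5 in SNF5 replicate 2, of which 2 were near TEKT4P2.

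Canonical E-boxes were more common in distal than in promoter peaks. Of the 698 distal peaks whose window could be read, 250 had CACGTG within 100 bp of the summit (35.8%, exact 95% interval 32.3 to 39.5) as did 1029 of 4350 promoter peaks (23.7%, 22.4 to 24.9), beside 26.1% of all peaks and 1.83% of all 201 bp tiles of the genome. CACGTG is its own reverse complement, so 1 search covers both strands. The odds ratio was 1.80 (two-sided Fisher's exact test, p = 3.07e-11, adjusted over 3 tests to 9.2e-11). Among peaks that EGFP replicate 1 shared, the shares were 61.1% (55 of 90) and 51.0% (378 of 741), and the odds ratio of 1.51 did not pass the threshold (Fisher's exact p = 0.0745). The share was 31.1% at unlisted starts, 41.7% in the intermediate class and 43.2% in far peaks, an order that runs with the fall in CpG content given above, whose part was not tested. Across the 4 groups by fold, the distal share was 29.5%, 31.0%, 40.4% and 46.0%, and that of promoter peaks 14.3%, 17.6%, 21.8% and 39.7%. More than 1 CACGTG was present in 32 distal peaks (4.58%) and 114 promoter peaks (2.62%).

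**Figure D4:**
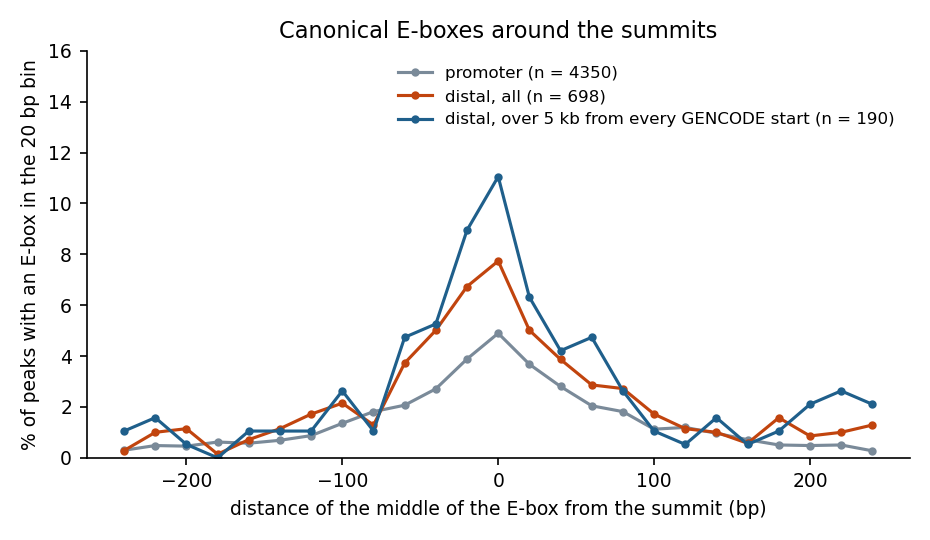
Percent of peaks with a CACGTG in each 20 bp bin, by distance in bp of the middle of the E-box from the summit, for promoter, distal and far peaks. All 3 lines are highest in the bin at the summit, at 4.90%, 7.74% and 11.1%.

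The E-boxes were centered on the summits. Within 250 bp, 318 distal peaks had a CACGTG, and the nearest lay at a median of 40 bp. The median was 37.5 bp in the 99 far peaks that had one and 44.5 bp in 1330 promoter peaks. Of the variant E-boxes, CACGCG was in 26.1% of distal and 29.3% of promoter windows (0.548% of tiles), CATGTG in 18.3% and 8.23% (12.9% of tiles), and CAGCTG in 13.2% and 10.4% (6.91% of tiles). Both strands were searched for every motif. The AP-1 motif TGANTCA was in 6.45% of distal windows, near the 6.30% of genome tiles, in 12.1% of far windows and in 1.61% of promoter windows. GC boxes, GGGCGG, were in 50.1% of distal, 31.6% of far and 62.2% of promoter windows, against 2.90% of tiles. The ETS motif CCGGAAG was in 8.74% and 14.6% of distal and promoter windows and the NF-Y motif CCAAT in 17.2% and 19.7%. AGGGGGC, part of the CTCF motif, was in 14.2% and 12.6%. These matches overlap where motifs share letters, describe base strings in the reference, and were not tested.

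Open chromatin was assessed by ATAC-Seq, whose lists are in hg38 coordinates. Only the unlisted starts could be placed there, through the GRCh38 positions that GENCODE gives, and 400 of the 412 were. An ATAC-Seq peak lay at 66.8%, 78.0% and 51.7% of them in the EGFP samples, at 51.2%, 81.0% and 58.5% with OmoMYC, and at 85.5%, 80.8% and 74.2% with SNF5. The OmoMYC and EGFP samples overlapped, and of the SNF5 samples the lowest was below the highest EGFP sample, although each SNF5 sample was above the EGFP sample of the same number. At promoter peaks the shares were 67.8 to 88.5% with EGFP, 65.0 to 91.9% with OmoMYC and 86.2 to 94.3% with SNF5. The number of ATAC-Seq peaks called moved the same way, with 9208 to 17817 per EGFP sample, 7260 to 23684 with OmoMYC and 22722 to 33596 with SNF5, and its part in these shares was not tested. In all 3 EGFP samples 202 of the 400 starts (50.5%) had a peak, and in none of the 3 did 84 (21.0%).

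Each peak was assigned to the gene of the table that held its summit (305 peaks) or else to the gene with the nearest start (395). This gave 605 genes, of which 267 held a summit, 81 had more than 1 distal peak and 144 also had a promoter peak. The assignment is by position and does not show that the gene responds to the peak. C22orf34 had the most, with 4 peaks of folds 3.12 to 4.99, of which 3 lay 282214 to 300537 bp from its start and 1 lay 28573 bp away. Next were 12 genes with 3 each: ATP5H, CDK11B, GATAD2A, IFRD1, IRS1, LOC440354, MKNK2, PTMA, RASA3, RGS14, RIPK1 and SYTL1. For PTMA, a nuclear acidic protein, all 3 lay in intergenic sequence 21111, 27182 and 46355 bp from the start, with folds of 5.42, 5.52 and 5.83, and the first was also in EGFP replicate 1 (4.996) and held CACGTG.

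Transcription of these genes was read from PRO-Seq gene body counts, which follow engaged RNA polymerase. Of the 605 genes, 547 passed the filter of a mean of 10 counts, and with SNF5 200 of them (36.6%) passed an adjusted p of 0.05 (edgeR's quasi-likelihood test with the replicate number as a block), beside 34.1% of all 15060 genes tested. The directions were unequal: 47 were higher (8.59%, against 17.6% of all genes) and 153 were lower (28.0%, against 16.5%), with a median log2 change of −0.12 against −0.03. Genes with a promoter peak had 6.44% higher and 29.7% lower of 3914. The 137 tested genes with both kinds of peak had 3 higher and 59 lower (43.1%), and the 410 with a distal peak alone had 44 higher (10.7%) and 94 lower (22.9%). The median scaled gene body count in EGFP cells was 2586 for the 547 genes and 1034 for all genes, and the part of this level in the calls was not tested. Without the replicate block 2 of the 547 passed, 1 in each direction (0.366%, beside 1.49% of all genes). Without replicate 1 or 2 there were 52 and 50 (9.51% and 9.14%, beside 10.8% and 9.65% of all genes).

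With OmoMYC, 47 of the 547 genes passed (8.59%), beside 8.53% of all genes. Of these 14 were higher (2.56%, against 4.1% of all) and 33 were lower (6.03%, against 4.42%), with medians of −0.05 and 0.00. Among genes with both kinds of peak 1 was higher and 19 were lower (13.9%), and among genes with a distal peak alone 13 and 14. The calls depended on single samples. Without the block, without replicate 1 and without replicate 2, edgeR called 0 of the 547, beside 1, 2 and 2 of all 15060 genes. Of the 547, 32, 54 and 74 had an unadjusted p under 0.05 in these settings. Without replicate 3 edgeR called 302 (55.2%, beside 44.6% of all genes). DESeq2 with the block called 91 (16.6%, beside 13.7%). The SNF5 and OmoMYC comparisons share the EGFP samples and are not independent of each other.

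**Figure D5:**
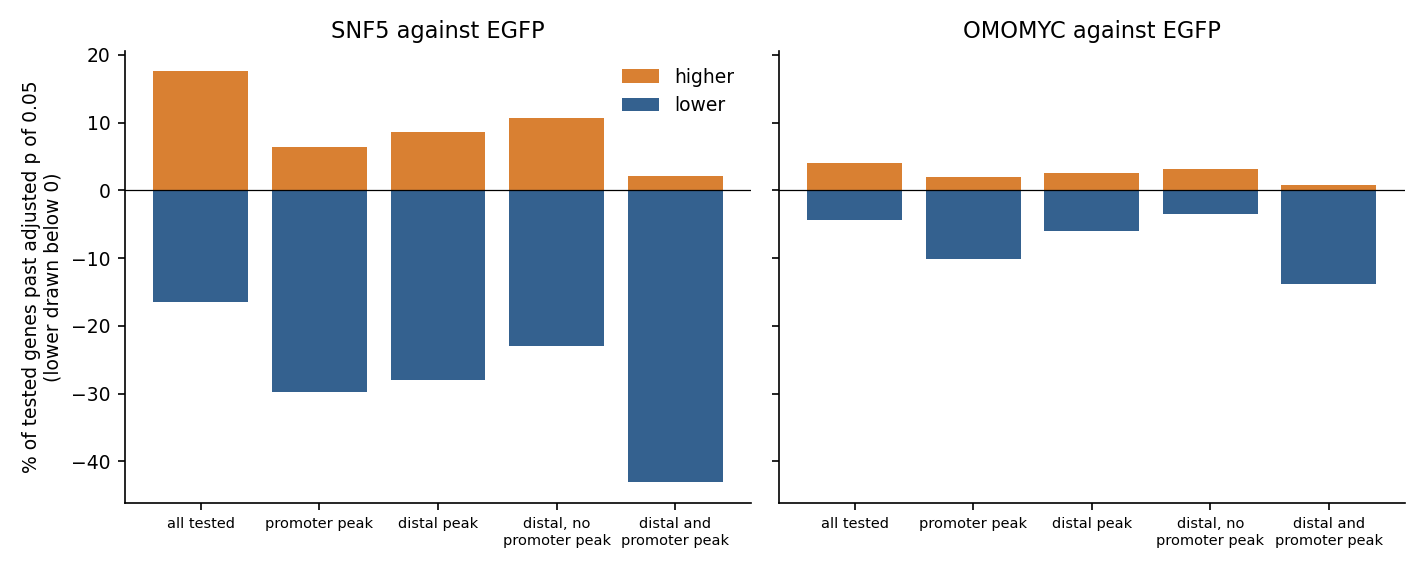
Percent of tested genes with higher or lower gene body counts at an adjusted p of 0.05 in cells expressing SNF5 or OmoMYC against EGFP, for all genes, genes with a promoter peak, genes with a distal peak, and the latter without and with a promoter peak. With SNF5 the lower calls exceed the higher ones in every group with a peak, from 22.9% against 10.7% for a distal peak alone to 43.1% against 2.19% with both.

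The named genes with the largest change came from those past the threshold. With SNF5, UNC13A had scaled gene body counts of 4064, 3506 and 8817 in the EGFP samples, 2238, 2084 and 3293 with SNF5 and 2803, 3031 and 6914 with OmoMYC. All SNF5 samples were below all EGFP samples, while OmoMYC overlapped EGFP. The log2 change with SNF5 was −1.01 ± 0.13 (SE, 3 samples each, adjusted p = 0.000841). Its promoter-proximal counts were 21.9, 44.7 and 83.7 with EGFP and 12.2, 26.6 and 23.9 with SNF5, which overlapped, but each was lower than its pair (log2 −1.23 ± 0.30, adjusted p = 0.0129). The peak of UNC13A, in a coding exon 6023 bp from the nearest GENCODE start, was in EGFP replicate 2 alone and had no CACGTG within 100 bp.

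MATK, a Csk-like kinase, had a peak in an untranslated region 115 bp from an unlisted start of its own, with CACGTG and a fold of 3.81. Its gene body counts were 937, 873 and 785 with EGFP, 571, 584 and 408 with SNF5 and 560.2, 560.0 and 466 with OmoMYC. Both constructs were below EGFP in every sample, with log2 changes of −0.75 ± 0.10 (adjusted p = 0.000788) and −0.71 ± 0.10 (adjusted p = 0.0138). The other falls with SNF5 were PPP1R1B (−1.03), STMN3 (−0.72) and FDXR, the ferredoxin reductase of mitochondrial steroid synthesis (−0.70). Those of PPP1R1B rested on few counts, 31.8, 47.3 and 75.5 with EGFP and 16.9, 19.2 and 39.2 with SNF5.

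The largest rises with SNF5 were in genes of low counts in EGFP cells. ALOX5AP, the 5-lipoxygenase-activating protein, had 4.4, 2.6 and 2.5 with EGFP and 22.6, 100.2 and 15.4 with SNF5, without overlap (log2 3.47 ± 0.55, adjusted p = 0.00207). FRMPD2 had 49.3, 61.4 and 178.1 with EGFP and 397.6, 365.5 and 1021 with SNF5, also without overlap (2.67 ± 0.16, adjusted p = 2.28e-05), but the peak assigned to it lay 31572 bp from its start and 169 bp from a start of MAPK8, a stress-activated kinase. LINC00426 (2.96), CECR3 (2.41) and SRL, a calcium-binding protein of muscle (2.19), also rose, and their peaks lay 34747, 102299 and 58461 bp from their starts. All 5 were assigned by nearest start and not by a summit inside the gene.

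With OmoMYC the largest rise was CDH15, a cadherin of muscle, with 80.0, 51.1 and 115.7 gene body counts in EGFP samples and 449.2, 376.7 and 406.8 with OmoMYC. The groups did not overlap (log2 2.35 ± 0.23, adjusted p = 0.00518), and with SNF5 the counts were 45.1, 54.3 and 67.4. FAM20C, a kinase of secreted proteins, had 3009, 2043 and 3108 with EGFP and 4412, 3586 and 6798 with OmoMYC (0.84 ± 0.10, adjusted p = 0.00776). CD82 (0.57), CNTRL (0.55) and SLC25A26 (0.43) also rose. After MATK, the falls were DNTTIP2 (−0.47), BCAR1, a docking protein of adhesion signaling (−0.46), RPS15, a ribosomal protein (−0.42), and TNFRSF1A, a TNF receptor (−0.41). The peaks of FAM20C (the stronger of 2), CD82, CNTRL, DNTTIP2 and RPS15 were assigned by nearest start, at 43620, 119338, 13373, 32551 and 5859 bp. The other genes named for OmoMYC held a summit. DNTTIP2 and RPS15 also had a promoter peak. None of the 10 genes named for OmoMYC kept its call without replicate 1, without replicate 2 or without the block, and none of the 10 named for SNF5 kept it without the block.

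Genes of the retained peaks and of the far peaks named above were called in part, and not all are given here. With SNF5 34.1% of all genes were called. LARP1 had 14271, 12589 and 15009 gene body counts with EGFP and 11547, 10382 and 13240 with SNF5, which overlapped, with each SNF5 sample below its pair (log2 −0.25 ± 0.05, adjusted p = 0.00455). PES1 (−0.44), the NME1-NME2 transcript (−0.35) and TCF3 (−0.32) also fell with SNF5, as did NUMBL (−0.39) and RASA3 (−0.25). PTGS1 rose from 3.3, 8.9 and 30.4 to 15, 23.4 and 83.6 (1.5 ± 0.41, adjusted p = 0.0210), in low counts that overlapped between groups. FOXK1 (−0.12, adjusted p = 0.147), SENP3-EIF4A1 (−0.19, adjusted p = 0.0724), RALGPS1 (0.08, adjusted p = 0.573) and HHIPL2 (0.25, adjusted p = 0.484) did not pass, and HLF had −0.24 with SNF5 (adjusted p = 0.294) and 0.47 with OmoMYC (adjusted p = 0.0954).

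Promoter-proximal counts, the second reading of the same table, could be tested for 409 of the 605 genes. With SNF5 15 passed (3.67%, beside 4.27% of 11241 genes), 8 higher (1.96%, beside 2.64%) and 7 lower (1.71%, beside 1.63%). With OmoMYC 5 passed (1.22%, beside 1.8%), all of them higher (beside 1.63% higher and 0.169% lower among all genes). Without the block edgeR called 0 of the 409 and 0 of the 11241 for either construct. Of the 409, 2 and 1 had an unadjusted p under 0.05. Singled out after the values were seen, IFRD1 had promoter-proximal counts of 0, 2.6 and 0.8 with EGFP and 7.5, 109.8 and 20.5 with SNF5, without overlap, at a fitted log2 change of 5.11 that depends on the near-zero EGFP counts. Its gene body counts of 4010, 4048 and 4224 with EGFP and 4959, 4879 and 5251 with SNF5 did not overlap either (0.30 ± 0.05, adjusted p = 0.00256). Of its 3 distal peaks, 1 lay 41 bp from an unlisted start of IFRD1, and the other 2, in intronic sequence 31283 and 31708 bp from the listed start, had 4 and 3 near-identical copies.

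Each of 6 gene lists of known biology held 0 to 4 genes with a distal peak, beside 605 of 20367 genes in the table. Differences between lists in these small counts were not tested. Of 84 cytosolic ribosomal protein genes 1 had a distal peak (RPS15, 5859 bp away, fold 3.52). A promoter peak was present for 74 of them, beside 4089 of 20367 genes in the table. In PRO-Seq gene bodies 21 of the 74 tested ribosomal protein genes (28.4%) fell with SNF5, beside 16.5% of all genes, and 46 (62.2%) fell with OmoMYC, beside 4.42%. Of 28 ribosome biogenesis genes in the table, PES1 and UBTF, the RNA polymerase I transcription factor (fold 5.35), had a distal peak and 24 a promoter peak, and 20 of 27 tested fell with SNF5 (74.1%, beside 16.5%) and 13 with OmoMYC (48.1%, beside 4.42%). None of 28 oncofetal and kidney development genes had a distal peak, and 4 had a promoter peak, beside the same 4089 of 20367 genes. Of the 18 tested, 3 were higher (16.7%, beside 17.6% of all genes) and 6 lower (33.3%, beside 16.5%) with SNF5, and 1 was higher (5.56%, beside 4.1%) and 2 were lower (11.1%, beside 4.42%) with OmoMYC.

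Of 28 matrix, adhesion and contractile genes only TPM1, a tropomyosin, had a distal peak (fold 4.70, 4 bp from an unlisted start). With SNF5 15 of the 24 tested rose (62.5%, beside 17.6% of all genes) and 1 fell (4.17%, beside 16.5%), and with OmoMYC 1 rose and 1 fell (4.17% each, beside 4.1% and 4.42%). TPM1 itself had 67809, 54360 and 3911 gene body counts with EGFP and 69265, 61141 and 29830 with SNF5 (log2 1.13 ± 0.52, adjusted p = 0.120). With both constructs the sample numbered 3 was the lowest, and with all 3 constructs that sample also had the highest CDH1 (799.3 with EGFP, 648.9 with OmoMYC and 931.4 with SNF5) and the lowest COL1A2 (584.3, 452.4 and 997.1). Of 18 AP-1 and immediate early genes in the table, 4 had distal peaks, with FOSB, IER2 and DUSP1 assigned by nearest start only. FOSB had 2 (folds 4.65 and 6.47, 17545 and 11965 bp from its start, nearest in GENCODE to ERCC1). ATF3 had 1 (5.54, 25 bp from an unlisted start), as did IER2 (4.28, 12554 bp away) and DUSP1, a MAP kinase phosphatase (3.95, 37599 bp away). None of these 4 passed in either comparison, with adjusted p-values from 0.0869 to 0.667, while in the whole group 2 of 15 rose (13.3%, beside 17.6% of all genes) and 3 of 15 fell (beside 16.5%) with SNF5, and 0 rose (beside 4.1%) and 1 fell (6.67%, beside 4.42%) with OmoMYC. These shares are near those of all genes.

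The MYC network list, mostly proteins that pair with MAX or MLX, had the largest share of genes with a distal peak among the 6 lists. This was 4 of 13, beside 605 of 20367 in the table. MNT, a repressor that pairs with MAX, had 2 neighboring peaks 82 and 157 bp from an unlisted start, with folds of 9.63 and 5.99, and the first was also in EGFP replicate 1. MGA, another MAX partner, had a peak 38856 bp from the listed start and 22 bp from an unlisted one (8.08, also in EGFP replicate 1, with CACGTG). MXI1 (6.89) had its peak 132 bp from an unlisted start of its own. The peak assigned to MLXIP, which pairs with MLX (5.77), lay 14313 bp from its listed start and 76 bp from a start of LINC02985. The gene body counts of MNT were 2054, 2324 and 2220 with EGFP, 1529, 1837 and 1840 with SNF5 and 2228, 2108 and 2345 with OmoMYC. SNF5 samples were all below EGFP samples (−0.34 ± 0.07, adjusted p = 0.00849), and OmoMYC overlapped EGFP (0.02, adjusted p = 0.879). MXI1 had 1915, 2425 and 2570 with EGFP and 2632, 3224 and 2739 with OmoMYC, which did not overlap (0.32 ± 0.08, adjusted p = 0.0466), and 0.09 with SNF5 (adjusted p = 0.443). MGA and MLXIP passed in neither comparison. In the whole network 2 of 11 tested genes fell with SNF5 (18.2%, near the 16.5% of all genes) and 0 rose (beside 17.6%), and with OmoMYC 2 rose (18.2%, beside 4.1%) and 1 fell (9.09%, beside 4.42%).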

How the data were processed

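MYC ChIP-Seq (2 samples per construct), PRO-Seq and ATAC-Seq (3 each) of G401 cells were analysed. IgG samples were not used here. The submitters' processing notes name cutadapt, Bowtie2, MACS2, DiffBind and HOMER, hg19 for ChIP-Seq and PRO-Seq and hg38 for ATAC-Seq. The authors called ChIP-Seq peaks per sample, and the deposited lists give position, summit, a fold ratio over local background, −log10 p and −log10 q. Each OmoMYC list held 1 placeholder line and was taken as 0 peaks. The authors counted PRO-Seq reads per RefSeq transcript, and the deposited table holds raw counts of the promoter-proximal window and gene body, and a gene body signal (density) that was not tested.

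Distances, CACGTG and other motifs and near-identical copies (BLAST 2.17.0, 95% identity over at least 180 bp) were taken from GRCh37 with GENCODE annotation. Overlap meant at least 1 bp. PRO-Seq was tested in R 4.3.3 with edgeR 4.0.16 (RLE factors, 1 transcript per symbol, 20367 symbols from 20582 transcripts, Benjamini-Hochberg adjustment over all genes tested), with DESeq2 1.42.0 as an alternative, and checked on simulated data. Scaled counts are counts divided by size factors. Other steps used Python 3.11.15, pandas 2.3.3, SciPy 1.17.1 and pysam 0.24.0. Replicate numbers were taken as pairs because same-numbered samples deviated together in every pair (correlations across genes of 0.767 to 0.889, with 9 of 9 samples nearest to their own number), so the number was a block.

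Named are the 15 distal peaks with the highest −log10 q, those with a SNF5 peak, the 10 of highest fold with an EGFP replicate 1 peak and CACGTG, the 5 largest rises and falls per construct among called genes, the genes with the most distal peaks, 3 peaks on each side of the limit, and the 10 strongest far peaks, a set added after the data were seen. The members, gene lists and tests were chosen with earlier results of these data known. Windows of 2 distal peaks on the masked part of chromosome Y could not be read, and the sequence of 1 other distal peak is not reported here. Intervals are exact (Clopper-Pearson) and cover counting error only.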

Additional observations from a re-analysis of the deposited data

Results flagged for a closer look

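EGFP replicate 1 held 6 peaks by the distance rule in coding exons of SMARCB1 that EGFP replicate 2 lacked, with folds up to 9.67, although the gene is lost in G401 cells and its PRO-Seq gene body counts in EGFP cells were at most 4.9. SNF5 replicate 1 also held 6 such peaks, with folds up to 7.34. They were noted because they appear in lists outside the distal peaks of EGFP replicate 2, and both lists also enter the counts of shared and retained peaks. The cause was not tested.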

How the results depend on the processing

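Limits of 2 or 10 kb, summits within 150 bp, a −log10 q of at least 5, windows of 50 or 250 bp and leaving out peaks with near-identical copies (an alternative chosen after seeing the data) kept the 3 comparisons of shares on the same side of the threshold. The odds ratio for an EGFP replicate 1 peak was 0.960 with a reciprocal overlap, and that for CACGTG was 1.51 among peaks that EGFP replicate 1 shared. Leaving out a SNF5 sample moved the odds ratio for a SNF5 peak between 0.797 and 1.66, the latter in the opposite direction without SNF5 replicate 1. The ratio of distal peaks per EGFP and SNF5 library was 53.25 with GENCODE starts added, and 6.71 to 45.2 with a library left out (also chosen after seeing the data, as were the settings of promoter-proximal counts).

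Without the replicate block, genes with a distal peak called in gene bodies numbered 2 with SNF5 and 0 with OmoMYC, and in promoter-proximal windows 0 and 0. With a replicate left out, gene body calls ran from 50 to 344 with SNF5 (9.14% to 62.9%, beside 9.65% to 56.2% of all genes). With OmoMYC they ran from 0 to 302 (0 to 55.2%, beside 0.0133% to 44.6%). Promoter-proximal calls ran from 2 to 29 and 0 to 34 (up to 7.09% and 8.31%, beside 8.62% and 7.82%). In gene bodies, the 257 tested genes that hold a summit gave 105 and 22 calls (40.9% and 8.56%, beside 34.1% and 8.53%). The 6 samples of the comparison gave 90 for OmoMYC (16.5%, beside 12.8%) and DESeq2 gave 91 (16.6%, beside 13.7%). All genes tested moved alike under these settings, from 5131 to 225 with SNF5 and from 1284 to 1 with OmoMYC without the block. For single named genes, 116 of the repeated values kept the call and 44 lost it, with no reversal. Some settings hold fewer genes or samples, and the causes of these changes were not tested. The peak lists give no read depth, so a peak absent from a list may lie below its detection limit, and the low promoter-proximal counts of the samples numbered 1 limit that test.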
